A study of Schizosaccharomyces pombe with 24 samples.

Results

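The 96 abundant long non-coding RNAs of fission yeast described here were chosen by read count from a time course of nitrogen starvation. They are the features with an SPNCRNA identifier whose raw counts summed to at least 1000 reads over 24 RNA-seq libraries, and 6 identifiers (SPNCRNA.231, SPNCRNA.232, SPNCRNA.359, SPNCRNA.364, SPNCRNA.365 and SPNCRNA.573) were left out by name. The table held 1538 features with such an identifier among 6877 genes, 1363 of them with at least 1 read. The count was the selection, so a high level is not a finding. Moreover, 20 of the 96 reached 1000 reads only with the group in which they had the most reads, for 12 of them the wt 24 h group. Another split is by strain: 3 (meu3, meu19 and sme2) reached it in the clr4D libraries alone but not in the wt libraries alone. The reverse held for 23 members. The wt libraries held more gene reads in all, so a member of equal level reaches 1000 reads more easily there. The selection can bear on the direction of strain differences as well, and the part of depth in these counts was not tested. Members just inside the threshold were SPNCRNA.1227 with 1046 reads, SPNCRNA.1447 with 1018 and SPNCRNA.1253 with 1009, and the lncRNAs just outside it were SPNCRNA.1600 with 989, SPNCRNA.1302 with 982 and SPNCRNA.1083 with 971.

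The study compared 2 strains of Schizosaccharomyces pombe. The labels call them wt (975 h+) and clr4D (975 h+ clr4D::NatMX6), so all libraries share the 975 h+ background and the clr4D strain is labelled as carrying NatMX6 in place of clr4. Clr4 is the histone H3 lysine 9 methyltransferase that builds heterochromatin, and h+ is a mating type. Cells of each strain grew in minimal medium with supplements and were then washed and held in the same medium without nitrogen. RNA was taken at 0 h, labelled control, and after 1, 2, 4, 10 and 24 h, with 2 libraries for each strain and time, which the series calls biological replicates. These were strand-directional libraries of total RNA depleted of ribosomal RNA.

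Long non-coding RNAs of fission yeast have many kinds of work. Some are working parts of enzymes and particles: the RNA of RNase P trims tRNA precursors, the 7SL RNA holds the signal recognition particle together, and telomerase RNA is the template for telomere repeats. Others take part in meiosis, which in fission yeast follows when nitrogen runs out and haploid cells of opposite mating type fuse. In growing cells the RNA-binding protein Mmi1 marks meiotic transcripts for destruction by the nuclear exosome, and the lncRNA made from sme2, called meiRNA, holds Mmi1 at a nuclear dot during meiosis. Many more are transcribed opposite or beside coding genes and have no assigned function.

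Gene reads per library ranged from 637723 to 4427020, with a median of 1436782. Wt 4 h replicate 2 had the fewest and also the lowest TMM scaling factor, 0.695 in a range to 1.263, and its partner had the most, so results at wt 4 h are given with and without it where it decides a call. Close to it was clr4D 0 h replicate 2, with 638879 gene reads, a scaling factor of 0.718 and 12.37% non-unique reads. The members took 0.791 to 1.883% of a library's gene reads and 541021 reads in all, which was 69.4% of the lncRNA reads. The targeted gene did not follow the strain label. Reads on clr4 were present in every clr4D-labelled library. At 0 h they stood at 337.1 ± 84.7 CPM, read counts scaled to library size, against 130.5 ± 58.2 in wt (SD, n = 2 libraries each). The log2 difference was 1.36 ± 0.24 (adjusted p = 0.0155, edgeR). It was also called at 1 h (1.89 ± 0.24, adjusted p = 0.000112) and 24 h (0.98 ± 0.21, adjusted p = 0.00594). At 2, 4 and 10 h it was not called (0.25, 0.07 and 0.16). The strains are therefore called wt-labelled and clr4D-labelled, and a direction between them is one between labels.

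The reads were spread unevenly over the members. The 10 with the most reads held 61.5% of them, and the median member had 1822 reads. Structural RNAs were 3 members with 21.9% of the reads, and 9 more were snoRNAs or their host transcripts with 22.8%. Another 7 lncRNAs with a gene name held 7.8%, and 77 others held 47.5%. The reference annotation matched 88 members by identifier and 4 by an older name, and left 4 unmatched (SPNCRNA.01, SPNCRNA.504, SPNCRNA.893 and SPNCRNA.1531). It places a protein-coding gene on the opposite strand of 65 members, and 4 of these lie wholly within one. The counting setting for strand is not given in the sources used here, so reads of a member and of its antisense partner could be shared. Some members also overlap another counted feature on the same strand. Among these are sme2 with SPBC1271.13, nam1 with SPBC1D7.04, SPNCRNA.920 with mnr2 and SPNCRNA.1280 with SPCC965.03. The part of such overlap in their counts was not tested.

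All 96 members passed the filter on low counts and were tested. Differences were tested with edgeR's quasi-likelihood F test over 12 group means, levels are TMM-scaled CPM, and a gene was called where its p, Benjamini-Hochberg adjusted over 5664 tested genes, was under 0.05. Each log2 difference is given with its standard error. Because RNA was bulk, fewer cells of a type and less RNA per cell cannot be told apart.

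In wt-labelled cells more members rose than fell after nitrogen was removed, while all genes split about evenly. At 1 h, 37 members rose and 13 fell. Among all tested genes the called share then was 53.4%, of which 26.5% were higher and 26.9% lower as shares of all. At 24 h, 46 members rose and 7 fell, beside 52.3% of all genes called, 23.7% higher and 28.6% lower. So the share of members called lay near that of all genes. The members' median log2 difference was 0.39 at 1 h and 0.71 at 24 h, against 0.01 and -0.04 over all tested genes. The 603 less read lncRNAs that were tested had a median of 0.44 at 24 h, with 152 higher and 63 lower, and the protein-coding genes had -0.10. Of the 76 members that reached 1000 reads without their top group, 36 rose and 5 fell at 24 h. The read sum gives deep libraries more weight. Gene reads were 1418856 and 969870 at wt 0 h and 2253590 and 2648620 at wt 24 h. The selection therefore favours RNAs that are high late, among these 76 as well. Its part in the excess of rises was not tested.

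The times between ran the same way in the wt-labelled libraries, against the same 0 h libraries. At 2 h, 37 rose and 14 fell, with 54% of all genes called (26.4% higher, 27.6% lower), and the members' median was 0.45. At 4 h, 47 rose and 7 fell, with 51% of all genes called (25.2% higher, 25.8% lower), and the median was 0.77. By 10 h, 42 were higher and 10 lower, with 50.4% of all genes called (23.6% higher, 26.9% lower), and the median was 0.55. Leaving out wt 1 h replicate 1 gave 32 called members at 1 h in place of 50, and leaving out wt 4 h replicate 1 gave 35 at 4 h in place of 54. Scaling by library totals alone raised the all-gene median by 0.14 to 0.59 over the time comparisons of both strains, and it gave 47 higher and 9 lower at 2 h and 55 higher and 4 lower at 10 h. The TMM values are therefore changes relative to the other genes.

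The clr4D-labelled cells showed a similar split, with the same limit from the read sum. At 1 h, 32 members rose and 13 fell, beside 52.2% of all genes called, 26.4% higher and 25.8% lower. At 2 h the counts were 35 and 13, with 52.3% of all genes called, 26% higher and 26.3% lower. At 4 h they were 40 and 7, with 49.2% called, 24.3% higher and 24.9% lower. The 10 h libraries gave 39 higher and 14 lower, with 54.6% of all genes called, 27.4% higher and 27.3% lower. By 24 h, 45 had risen and 8 had fallen, with 54.7% called, 25.4% higher and 29.3% lower. Median log2 differences of the members were 0.22, 0.42, 0.59, 0.48 and 0.58 in that order of times, against 0.00, 0.02, 0.03, 0.04 and -0.01 over all genes. Without clr4D 0 h replicate 1, 30 members were called at 2 h in place of 48. Library totals gave 42 higher and 5 lower at 2 h, 55 and 2 at 4 h, 54 and 5 at 10 h, and 60 and 3 at 24 h.

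The time of the highest level varied among the members. In wt-labelled libraries the highest group mean fell at 0 h for 9 members, at 1 h for 15, at 2 h for 8, at 4 h for 18, at 10 h for 12 and at 24 h for 34. That last count is 35.4% of the members. It partly follows from the selection, since 12 members reached 1000 reads only with wt 24 h, so nothing is read from it: of the 76 members that reached 1000 reads without their top group 30.3% peaked then, and of the other tested lncRNAs 22.1%. In clr4D-labelled libraries the counts were 23, 13, 10, 9, 12 and 29, and 10 of the 23 at 0 h were structural RNAs or snoRNAs. The ratio of a member's highest to its lowest group mean had a median of 2.9 in wt over the 95 members with reads in every group, from 1.31 for SPNCRNA.1263 to 358.4 for SPNCRNA.577. In clr4D-labelled libraries the median was 2.98, and SPNCRNA.1263 was again the flattest at 1.21.

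**Figure D1:**
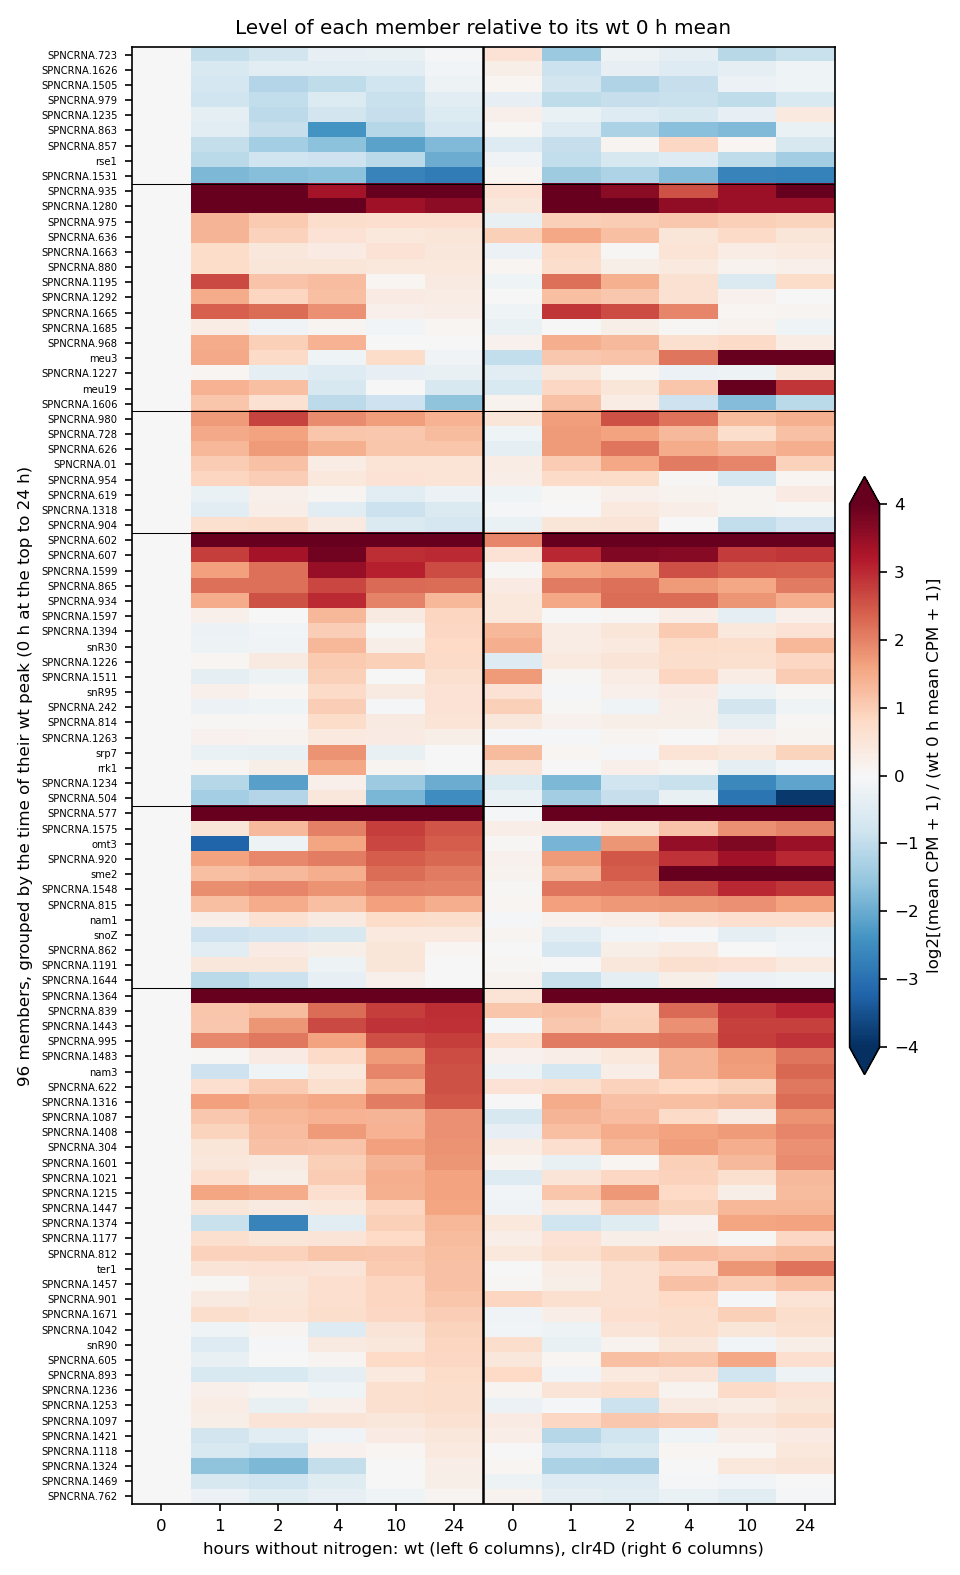
Heat map of the 96 abundant lncRNAs (rows, grouped by the time of their wt peak) in the 12 strain and time groups (columns), coloured by log2 of the group mean CPM plus 1 over the wt 0 h mean plus 1. Members that rose over the course outnumber those that fell in both strains, and at 24 h in wt 46 rose and 7 fell.

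Structural RNAs and snoRNAs were called less often than all genes at each time, and their replicates lay further apart than those of other genes. Of these 12, 1 rose and none fell at 1 h in wt (53.4% of all genes called). At 4 h 5 rose and none fell, which is 41.7% beside 51% of all genes called. The rises of rrk1, srp7 and snR30 at 4 h shrank without the shallow wt 4 h replicate 2, as given below. At 24 h 2 rose and none fell (52.3% of all genes called). The other 84 members gave 36 higher and 13 lower at 1 h and 44 higher and 7 lower at 24 h. In clr4D-labelled libraries none of the 12 rose and 3 fell at 1 h (52.2% of all genes called), and 2 rose at 24 h (54.7% of all genes called). Their median log2 difference from 0 h was 0.35 at 10 h in wt and -0.77 at 10 h in clr4D-labelled cells, where 10 of the 12 had their highest mean at 0 h against 1 of the 12 in wt. Beside this, the median absolute log2 ratio between replicates was 0.52 for the 12, 0.27 for the other 84 and 0.19 for all 5664 genes. Replicate 1 was the higher library in at least 10 of 12 groups for 9 of the 12 (75.0%), for 12 of the 84 (14.3%) and for 295 genes in all (5.2%). The clr4D 0 h group also held the shallow replicate 2 described above. The part of this replicate difference and of that library in the calls and peak times was not tested.

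rrk1 (SPNCRNA.128), the RNA of RNase P, was the most read member, with 63430 reads. Its wt-labelled libraries had 1722.6 and 992.5 CPM at 0 h and 2696.8 and 5164.9 at 4 h, a difference of 1.53 ± 0.38 (adjusted p = 0.00245), or 0.99 (adjusted p = 0.084) without wt 4 h replicate 2. At 24 h they had 1515.4 and 1194.3, within the range of 0 h. The clr4D-labelled libraries had 1801.9 and 1121.0 CPM at 4 h, below both wt libraries, and the strain difference was -1.42 ± 0.38 (adjusted p = 0.0171). That call rested on the shallow library: without wt 4 h replicate 2 the difference was -0.87 with adjusted p = 0.321, and without clr4D 4 h replicate 2 adjusted p was 0.145. srp7 (SPNCRNA.98), the 7SL RNA of the signal recognition particle, was also high in that library, with 1445.4 and 4453.5 CPM at wt 4 h against 880.7 and 804.1 at 0 h (1.80 ± 0.36, adjusted p = 0.00037), and the difference left without it was 0.78 (adjusted p = 0.00624). Its strain difference at 4 h, -1.24 ± 0.35 (adjusted p = 0.0227), became -0.22 (adjusted p = 0.676) without wt 4 h replicate 2, and adjusted p was 0.131 and 0.118 without clr4D 4 h replicate 1 and 2.

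snR30 (SPNCRNA.906), a snoRNA needed to cut ribosomal RNA precursors, had 428.6 and 462.0 CPM at 0 h and 810.7 and 1427.3 at 4 h in wt (1.31 ± 0.39, adjusted p = 0.0106). Without wt 4 h replicate 2 that was 0.87 (adjusted p = 0.147), and without wt 0 h replicate 1 adjusted p was 0.0752. Its 0 h libraries labelled clr4D lay far apart, at 624.0 and 1841.0 CPM. snR95 (SPNCRNA.1436), another snoRNA, had 836.5 and 540.0 CPM at wt 0 h and 1199.2 and 878.3 at 24 h (0.59 ± 0.33, adjusted p = 0.147). SPNCRNA.901, annotated around snR91, gave 583.8 and 346.8 CPM at wt 0 h and 1333.4 and 692.9 at 24 h (1.12 ± 0.66, adjusted p = 0.178), with replicate 1 above replicate 2 in each of the 12 groups. SPNCRNA.814, around snR98, gave 542.3 and 332.4 CPM at wt 0 h and 723.9 and 551.4 at 24 h (0.54 ± 0.34, adjusted p = 0.206). In these 3 the 24 h libraries lay above the 0 h libraries, but the difference was not called beside the spread of their replicates.

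ter1 (SPNCRNA.214), the telomerase RNA, repeated closely and rose. The wt-labelled libraries had 155.2 and 154.8 CPM at 0 h, 235.3 and 212.3 at 1 h, 319.8 and 320.7 at 10 h and 367.1 and 341.3 at 24 h. The clr4D-labelled libraries had 170.6 and 146.1 CPM at 0 h, 196.4 and 183.5 at 1 h, 615.4 and 436.5 at 10 h and 727.3 and 661.9 at 24 h. The strains overlapped at 0 h and no longer did at 10 and 24 h. From 0 to 24 h ter1 rose by 1.19 ± 0.19 in wt (adjusted p = 1.45e-05) and by 2.11 ± 0.19 in clr4D-labelled cells (adjusted p = 3.79e-09). The strain difference was 0.72 ± 0.18 at 10 h with adjusted p = 0.00457 and 0.97 ± 0.18 at 24 h with adjusted p = 0.000548, and the time courses differed between the strains (adjusted p = 0.018). Leaving out clr4D 10 h replicate 1 gave 0.45 at 10 h (adjusted p = 0.162), leaving out wt 10 h replicate 1 gave an adjusted p of 0.0501 there, and the call for the course ended without any of 5 libraries, with adjusted p from 0.0515 to 0.064.

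Among members with reads in every wt group, SPNCRNA.577 had the widest range of means. It is the RNA that the annotation places opposite SPBC1652.02, an amino acid transporter gene. Its wt-labelled libraries had 0.902 and 3.6 CPM at 0 h, 435.3 and 368.7 at 1 h, 301.3 and 242.7 at 2 h, 458.3 and 458.5 at 4 h, 782.1 and 831.6 at 10 h, and 738.7 and 855.0 at 24 h. So it was near absent in growing cells and abundant in all later wt libraries. The difference from 0 h was 7.56 ± 0.30 at 1 h with adjusted p = 1.92e-15 and 8.54 ± 0.29 at 24 h with adjusted p = 1.09e-16. Reads on SPBC1652.02 went the other way in wt, from 244.7 ± 25.7 CPM at 0 h to 9.1 ± 1.58 at 1 h and 7.8 ± 0.276 at 24 h (-4.95 ± 0.22, adjusted p = 1.03e-14).

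SPNCRNA.935, which lies between rpl1002 (a ribosomal protein gene) and per1 (an amino acid permease gene), came up fast and then dipped. Its wt-labelled libraries had 1.8 and 7.2 CPM at 0 h, 535.1 and 482.1 at 1 h, 62.2 and 47.4 at 4 h and 315.4 and 325.0 at 24 h. The level at 1 h was thus the highest and that at 4 h the lowest of these later groups, with no overlap between them. Its difference from 0 h was 6.92 ± 0.25 at 1 h with adjusted p = 1.14e-15 and 6.25 ± 0.26 at 24 h with adjusted p = 3.5e-15.

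SPNCRNA.602, between the phospholipase gene plb4 and the sodium/proton antiporter gene nhe1, had no reads at wt 0 h. It had 31.4 and 35.1 CPM at 1 h and 29.6 and 31.6 at 24 h, which is at least 20.8-fold higher at 1 h and at least 19.9-fold higher at 24 h than 3 reads over the 0 h group would give. The clr4D-labelled libraries had 1.39 and 4.36 CPM at 0 h and 26.7 and 34.2 at 24 h (3.80 ± 0.48, adjusted p = 5.63e-07).

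SPNCRNA.1364, opposite the serine protease gene htr11, had 3 reads at wt 0 h. It went to 93.5 and 55.9 CPM at 1 h, a ratio of 55.7 with a 95% counting interval from 18.9 to 271.8, and to 98 and 109.2 at 24 h, a ratio of 67.3 (22.9 to 327.3). In clr4D-labelled cells it had 3.48 and 2.18 CPM at 0 h and 111.6 and 127.2 at 24 h (5.21 ± 0.38, adjusted p = 7.82e-11). SPNCRNA.1280, opposite the mitochondrial protease gene yme1, peaked early, with 5.41 and 8.4 CPM at 0 h, 214.5 and 204.3 at 1 h and 87.4 and 100.5 at 24 h in wt (3.80 ± 0.29 at 24 h, adjusted p = 1.97e-10). SPNCRNA.607, opposite the cell surface glycoprotein gene pfl8, had 5.41 and 3.6 CPM at 0 h and 38.8 and 45.6 at 24 h (3.17 ± 0.33, adjusted p = 3.95e-08). In each of these the 24 h libraries lay above the 0 h libraries without overlap.

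**Figure D2:**
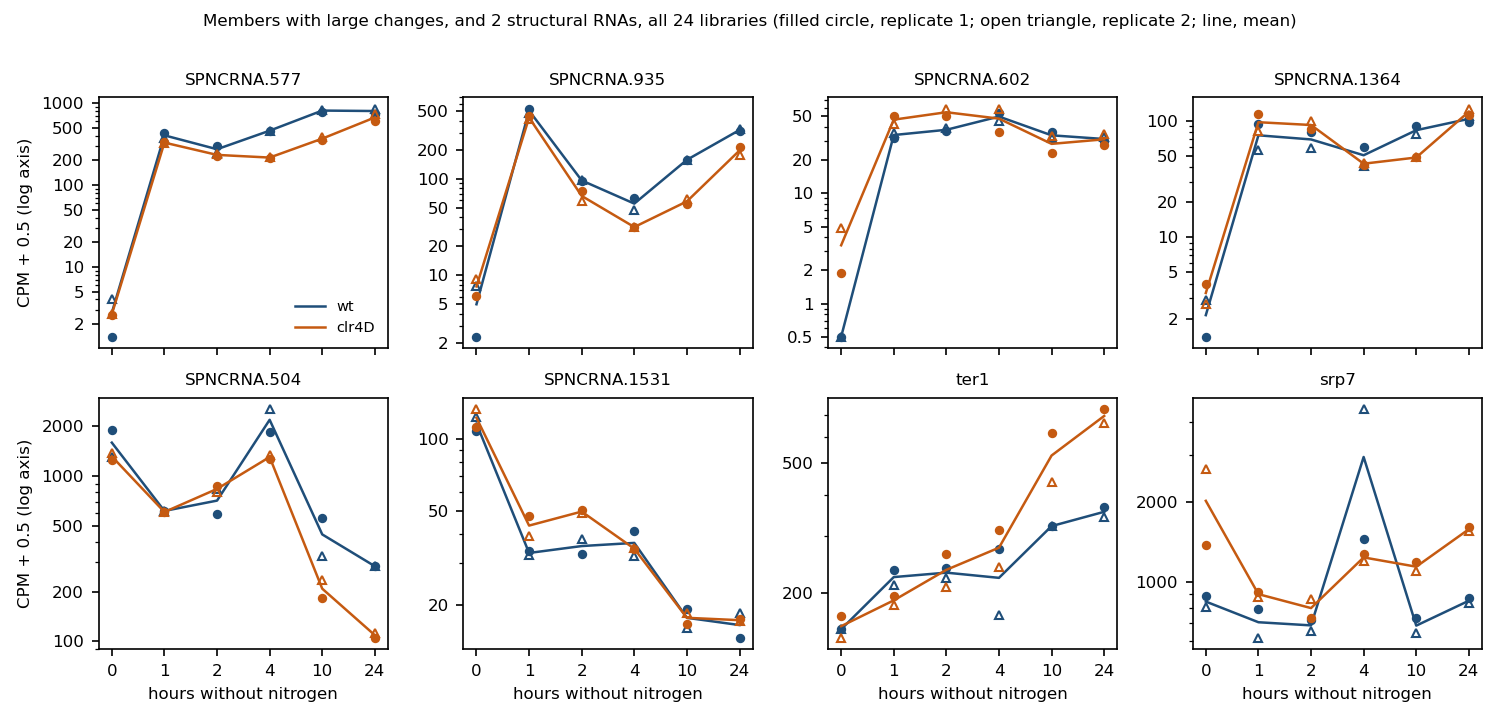
CPM on a log axis against hours without nitrogen for 6 members with no gene name and for ter1 and srp7, with 0.5 CPM added, each library a point and lines through the group means, by strain label. SPNCRNA.577 went from 0.902 and 3.6 CPM to 738.7 and 855.0 in wt, and SPNCRNA.504 ended below its 0 h level in both strains.

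Fewer members fell. SPNCRNA.504, among the 10 most read, had 1885.9 and 1298.5 CPM at wt 0 h, 614.8 and 614.5 at 1 h, 1846.8 and 2529.4 at 4 h, 560.0 and 326.2 at 10 h and 284.2 and 284.3 at 24 h. It was thus low at 1 h, back in the range of 0 h or above at 4 h, and lowest at 24 h (-2.49 ± 0.24, adjusted p = 8.56e-09). SPNCRNA.1531 went from 108.3 and 123.6 CPM to 33.4 and 31.9 at 1 h and 14.1 and 18 at 24 h in wt (-2.84 ± 0.18, adjusted p = 4.31e-12), and from 112.1 and 133.1 to 17 and 16.7 in clr4D-labelled cells (-2.83 ± 0.18, adjusted p = 1.08e-11). SPNCRNA.1234, opposite the thiamine synthesis gene nmt1, had 180.5 and 182.4 CPM at wt 0 h and 49 and 40.3 at 24 h (-2.02 ± 0.57, adjusted p = 0.00961), which became 0.0605 without wt 24 h replicate 2. SPNCRNA.1606 rose first, from 23.5 and 39.6 CPM to 65.6 and 73.4 at 1 h (1.15, adjusted p = 0.00194). The rise was 0.74 when wt 0 h replicate 1 was dropped, and its call ended. SPNCRNA.1606 passed the read threshold only with its wt 1 h reads, which were 213 of 1095. Its rise at 1 h is therefore a description of values that chose it. SPNCRNA.1606 then stood at 12.5 and 6.66 CPM at 24 h in wt (-1.69 ± 0.35, adjusted p = 0.000321).

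Smaller or passing falls were also called at 1 h in wt. SPNCRNA.1324, opposite the gluconeogenesis gene fbp1, went from 31.6 and 34.8 CPM at 0 h to 10.6 and 9.58 at 1 h (-1.66 ± 0.34, adjusted p = 0.000217), and was at 36.5 and 43.6 at 24 h. SPNCRNA.1644, opposite the meiotic kinase gene spo4, went from 58.7 and 54 CPM to 25.5 and 27.1 (-1.12 ± 0.27, adjusted p = 0.00128) and had 49.4 and 64.3 at 24 h. In clr4D-labelled cells SPNCRNA.242 was lower at 24 h by a log2 difference of -1.11, and SPNCRNA.904 by -0.52, which scaling by library totals turned to 0.07. Neither call held without clr4D 0 h replicate 2 or clr4D 24 h replicate 1.

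rse1 (SPNCRNA.111), annotated as a cis-acting repressor of ste11, fell in both strains. A difference in its time course between them was not called. ste11, named here after its values were seen, codes for the transcription factor that starts sexual differentiation. The rse1 libraries labelled wt had 482.8 and 523.2 CPM at 0 h, 241.2 and 236.2 at 1 h and 131.1 and 122.5 at 24 h (-1.99 ± 0.15, adjusted p = 1.71e-10). Those labelled clr4D had 504.2 and 412.3 CPM at 0 h and 192.6 and 191.7 at 24 h (-1.27 ± 0.15, adjusted p = 2e-07). At 24 h rse1 was therefore higher in clr4D-labelled cells, by 0.60 ± 0.15 (adjusted p = 0.0102), but dropping clr4D 24 h replicate 1 moved adjusted p to 0.0646, and dropping wt 24 h replicate 2 moved it to 0.135. ste11 was at 225.6 ± 61.2 CPM at 0 h and 280.8 ± 10.2 at 24 h in wt (0.32 ± 0.34, adjusted p = 0.446), and at 227.3 ± 2.4 and 627.0 ± 36.9 in clr4D-labelled cells (1.46 ± 0.35, adjusted p = 0.00193), with a strain difference of 1.16 ± 0.33 at 24 h with adjusted p = 0.036.

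nam1 and nam3 carry names given for association with Mmi1. nam1 (SPNCRNA.1459), next to the mating kinase gene byr2, had 54.1 and 48 CPM at 0 h and 87.8 and 81.6 at 24 h in wt (0.72 ± 0.17, adjusted p = 0.00112), and 57.1 and 41.4 against 81.5 and 83.3 in clr4D-labelled cells (0.65 ± 0.18, adjusted p = 0.00319; 0.98 when clr4D 0 h replicate 1 was dropped). nam3 (SPNCRNA.1696) dipped in wt from 23.5 and 22.8 CPM to 10.6 and 14.4 at 1 h and then reached 147.4 and 134.2 at 24 h (2.60 ± 0.24, adjusted p = 3.4e-09). Its clr4D-labelled libraries went from 20.2 and 19.6 CPM to 118.9 and 118.0 (2.56 ± 0.26, adjusted p = 1.45e-08). No strain difference was called for nam1 or nam3 at any time with all libraries, though nam3 was called at 4 h (1.93, adjusted p = 0.000832) when wt 4 h replicate 1 was dropped, and at 24 h those differences were -0.04 ± 0.14 and -0.25 ± 0.16.

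Between the strains, few members differed early and more did later. No member was called at 0 h (0.23% of all genes called, 0.194% higher and 0.0353% lower; 7 members had an unadjusted p under 0.05 and DESeq2 called 1) and none at 1 h (0.671% of all genes called, 0.459% higher and 0.212% lower; 4 members had an unadjusted p under 0.05 and DESeq2 called 0). At 2 h, 3 were higher in clr4D-labelled cells and none lower (1.55% of all genes called, 1.32% higher and 0.23% lower). At 4 h, 7 were higher and 10 lower (15% of all genes called, 5.19% higher and 9.82% lower). At 10 h, 11 were higher and 12 lower (23.9% called, 12% higher and 12% lower), and at 24 h, 10 were higher and 2 lower (8.79% called, 5.63% higher and 3.16% lower). The called share of members was 17.7% at 4 h, 24% at 10 h and 12.5% at 24 h, and at 4 and 10 h that is near the share of all genes. Their median log2 differences were -0.06, -0.11 and -0.08 at 4, 10 and 24 h, against -0.03, -0.02 and -0.03 over all genes. Over the mean of the 6 times 20 members were higher and 9 lower, beside 24.5% of all genes called, 10.3% higher and 14.2% lower.

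These counts moved with the scaling and with single libraries. Library totals gave 9 higher and 2 lower at 4 h, 13 and 6 at 10 h, and 21 and 2 over the mean of the times, for which upper quartile scaling gave 21 and 5. One member was called at 2 h without wt 2 h replicate 1 or without wt 2 h replicate 2, 11 at 4 h without clr4D 4 h replicate 1 or 2, and 13 at 10 h without wt 10 h replicate 1 or clr4D 10 h replicate 1. At 24 h 7 were called without wt 24 h replicate 2 or clr4D 24 h replicate 1, and 16 over the mean of the times without clr4D 0 h replicate 1. At 0 h 1 was called without clr4D 0 h replicate 1.

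Over the 6 times, 15 members were called higher in clr4D-labelled cells at some time, 16 lower, none in both directions, and 65 at no time. Of all tested genes 31.1% were called at some time, 14.4% higher and 16.9% lower, so the members' share was near the background. The 4 meiotic lncRNAs omt3, meu3, meu19 and sme2 were among the 15, as were ter1 and rse1, SPNCRNA.857, SPNCRNA.920, SPNCRNA.1548, SPNCRNA.01, SPNCRNA.1318, SPNCRNA.1235, SPNCRNA.1374, SPNCRNA.605 and SPNCRNA.1324. Those called lower were SPNCRNA.504, SPNCRNA.935, SPNCRNA.577, SPNCRNA.865, SPNCRNA.1087, SPNCRNA.1575, SPNCRNA.1597, SPNCRNA.934, SPNCRNA.1364, SPNCRNA.1599, SPNCRNA.1316, SPNCRNA.1177, SPNCRNA.954, SPNCRNA.1606, and at 4 h alone rrk1 and srp7.

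**Figure D3:**
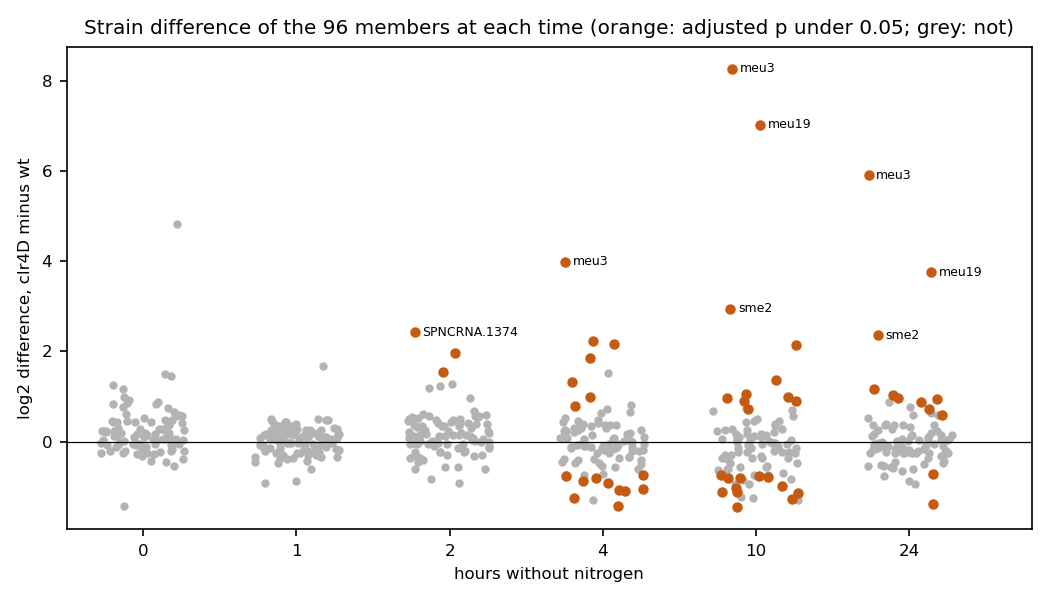
Log2 difference between clr4D-labelled and wt-labelled libraries (vertical axis) for all 96 members at each time (horizontal axis, points spread sideways), orange where adjusted p was under 0.05. meu3 stood highest with 8.26 at 10 h, and SPNCRNA.935 was at -1.45 there.

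meu3 (SPNCRNA.07) and meu19 (SPNCRNA.29), non-coding RNAs named for their rise in meiosis, reached 1000 reads only with the clr4D 10 h group, which held 3436 of 3922 reads of meu3 and 2596 of 3140 of meu19. Their strain difference at 10 h is therefore a description of values that chose them. The wt-labelled libraries of meu3 had 0.902 and 2.4 CPM at 0 h, 3.53 and 3.32 at 10 h and 1.52 and 1.33 at 24 h. The clr4D-labelled libraries had 0.696 and 0 at 0 h, 7.75 and 13.6 at 4 h, 1310.7 and 858.1 at 10 h and 87.3 and 91.2 at 24 h. So meu3 stayed at a few CPM in wt and came up in a burst at 10 h in clr4D-labelled cells, with no overlap. Its strain difference was 8.26 ± 0.38 at 10 h and 5.90 ± 0.46 at 24 h with adjusted p = 5.56e-08. Against the single read of its own 0 h group, the clr4D-labelled 10 h level was a ratio of 2127.3 with a 95% counting interval from 381.5 to 84046.7. At 4 h the call (3.99 ± 0.95, adjusted p = 0.00976) rested on 25 reads against 3, a ratio of 18 (5.48 to 93). Dropping wt 4 h replicate 1 moved its adjusted p to 0.424, and dropping clr4D 4 h replicate 2 moved it to 0.107.

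meu19 had 5.1 and 8.85 CPM at 10 h and 4.18 and 4 at 24 h in wt, and 1078.4 and 524.0 at 10 h and 63.1 and 49.1 at 24 h in clr4D-labelled cells. Like meu3 it was far higher at 10 h than at 24 h in those cells, and low in every wt library. The strain difference was 7.02 ± 0.42 at 10 h and 3.75 ± 0.49 at 24 h with adjusted p = 7.6e-05.

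sme2 (SPNCRNA.103) makes meiRNA, the lncRNA of the meiotic nuclear dot. In wt it had 4.51 and 3.6 CPM at 0 h, 23.4 and 2.26 at 4 h, 28.3 and 17.7 at 10 h and 25.1 and 15.3 at 24 h. In clr4D-labelled cells it had 4.88 and 4.36 CPM at 0 h, 111.3 and 73.5 at 4 h, 230.1 and 152.1 at 10 h and 125.2 and 82 at 24 h. The strains overlapped at 0 h, and from 4 h on every clr4D-labelled library lay above every wt library of its time. From 0 to 10 h sme2 rose by 2.57 ± 0.69 in wt (adjusted p = 0.00466) and 5.32 ± 0.50 in clr4D-labelled cells (adjusted p = 6.12e-08). A difference in time course between the strains was not called for sme2. Its strain difference was 2.17 ± 0.36 at 4 h with adjusted p = 0.000575, 2.95 ± 0.32 at 10 h with adjusted p = 1.99e-06 and 2.36 ± 0.31 at 24 h with adjusted p = 4.34e-05. The rise in wt was 2.08 (adjusted p = 0.0897) without wt 10 h replicate 1. The 4 h difference turned on wt 4 h replicate 1, and was 5.29 when it was dropped. sme2 had 1346 reads in the clr4D-labelled libraries and 396 in the wt libraries, and only the former pass the read threshold alone. The direction of its strain differences is therefore partly fixed by the selection.

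omt3 (SPNCRNA.130), annotated as a lncRNA of meiosis-specific foci and lying next to mei2, fell before it rose. Its wt-labelled libraries had 84.8 and 88.8 CPM at 0 h, 5.89 and 11.2 at 1 h, 56.8 and 93.4 at 2 h, 360.2 and 162.6 at 4 h, 591.8 and 520.9 at 10 h and 470.0 and 469.4 at 24 h. The clr4D-labelled libraries had 112.8 and 67.6 CPM at 0 h, 21.5 and 24.4 at 1 h, 325.4 and 268.5 at 2 h, 1269.4 and 745.0 at 4 h, 1328.0 and 982.6 at 10 h and 1013.6 and 916.3 at 24 h. Both strains dropped at 1 h, and the clr4D-labelled cells were already above their 0 h level at 2 h, when wt was not. A difference in time course between the strains was not called for omt3.

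The fall of omt3 at 1 h was -3.59 ± 0.52 in wt (adjusted p = 1.38e-05) and -2.05 ± 0.47 in clr4D-labelled cells (adjusted p = 0.00138), and the rise by 10 h was 2.68 ± 0.35 (adjusted p = 6.35e-06) and 3.60 ± 0.35 (adjusted p = 1.71e-07). The strain difference was 1.96 ± 0.33 at 2 h with adjusted p = 0.00222, 1.86 ± 0.32 at 4 h with adjusted p = 0.000887, 1.05 ± 0.30 at 10 h with adjusted p = 0.0173 and 1.04 ± 0.30 at 24 h with adjusted p = 0.0395. Leaving out any 1 of the 4 libraries at 24 h ended that call, with adjusted p from 0.0983 to 0.231. The 10 h call ended without wt 10 h replicate 1 or 2 or clr4D 10 h replicate 1, and the 2 h call without wt 2 h replicate 1, where adjusted p was 0.0532. The fall at 1 h in clr4D-labelled cells was not called when clr4D 0 h replicate 1 was dropped (adjusted p = 0.0536). mei2, its neighbour, codes for the RNA-binding protein that switches cells into meiosis. It had 276.7 ± 99.1 CPM at 0 h, 107.9 ± 34.8 at 1 h and 1783.4 ± 296.1 at 10 h in wt, and 4591.3 ± 612.6 at 10 h in clr4D-labelled cells (strain difference 1.37 ± 0.32, adjusted p = 0.00287).

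Genes of mating and meiosis moved at the times when these lncRNAs differed. All 7 genes of a list for M cells, the mating type opposite to h+, were higher in clr4D-labelled cells at 2, 4, 10 and 24 h, and their summed level was 144.0 to 251.4 CPM over the wt libraries, where at most 2 of the 7 had no read, against 9053.0 to 9494.7 at 4 h and 9244.1 to 10810.0 at 10 h in clr4D-labelled cells. Of 4 genes for P cells, the h+ type, 3 were higher at each of those times, and their summed level at 10 h was 1341.7 and 1360.2 CPM in wt against 7515.7 and 7019.9. Of 14 genes of meiosis and spores, none was called at 2 h, 8 were higher at 4 h, 14 at 10 h and 11 at 24 h, and their summed level was 266.4 to 421.3 CPM over the wt libraries, where at most 3 of the 14 had no read, against 7781.9 to 15856.3 at 10 h in clr4D-labelled cells. The part of cell state in the strain differences of meu3, meu19, sme2 and omt3 was not tested.

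**Figure D4:**
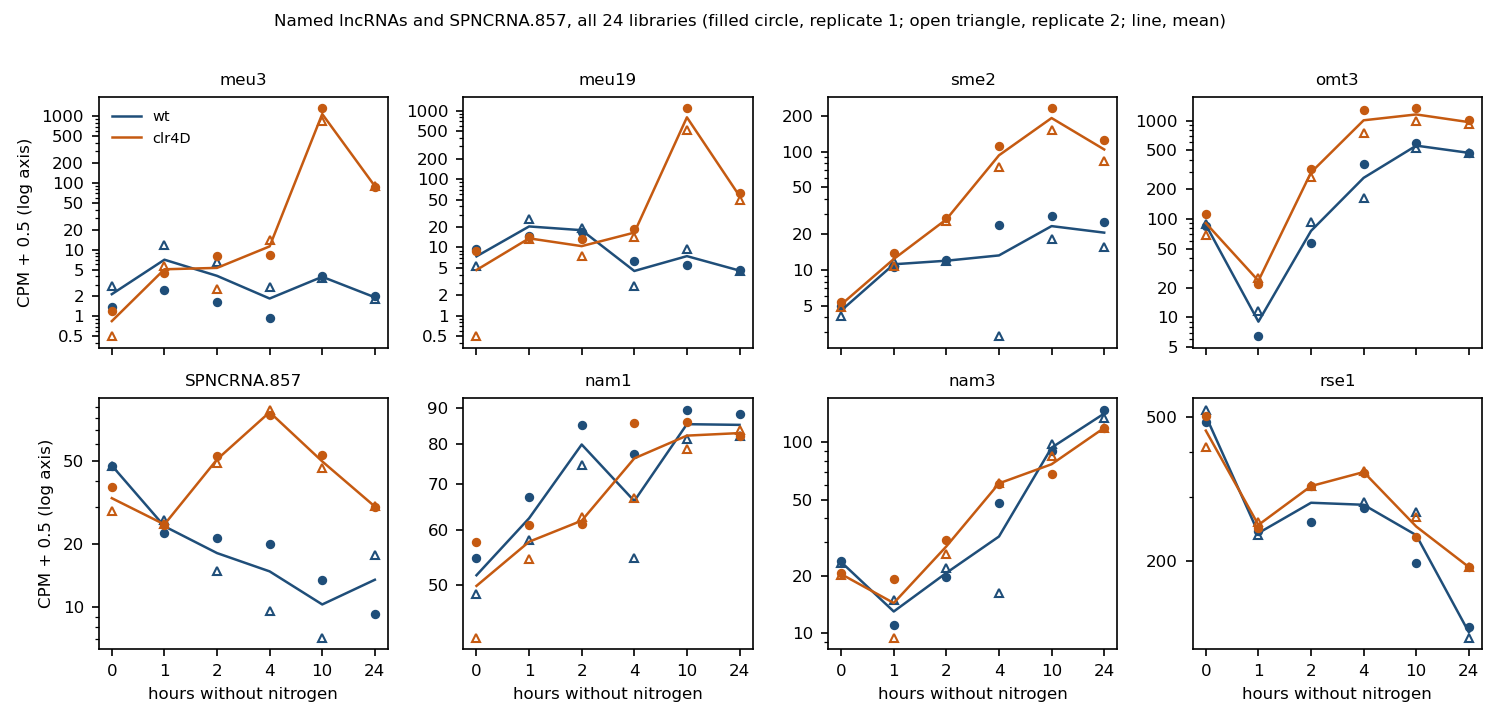
CPM on a log axis against hours without nitrogen for 7 named lncRNAs and SPNCRNA.857, with 0.5 CPM added, each library a point and lines through the group means, by strain label. meu3 and meu19 peaked at 10 h in clr4D-labelled cells, at 1310.7 and 858.1 CPM for meu3, and nam3 rose in both strains.

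SPNCRNA.857, opposite the dehydrogenase gene SPACUNK4.17, took opposite courses in the strains. In wt it had 46.9 and 46.8 CPM at 0 h, 22 and 25.5 at 1 h, 20.9 and 14.3 at 2 h, 19.6 and 9.03 at 4 h, 12.9 and 6.64 at 10 h and 8.74 and 17.3 at 24 h. In clr4D-labelled cells it had 36.9 and 28.4 CPM at 0 h, 24.2 and 24.4 at 1 h, 52.1 and 48.3 at 2 h, 82.3 and 87 at 4 h, 52.5 and 45.7 at 10 h and 29.6 and 29.8 at 24 h. From 2 h on the groups did not overlap. SPNCRNA.857 passed the read threshold only with its clr4D 4 h reads, which were 194 of 1137. Its rise and its strain difference at 4 h are therefore descriptions of values that chose it. SPNCRNA.857 changed by -1.38 ± 0.28 from 0 to 4 h in wt (adjusted p = 0.000273) and by 1.30 ± 0.26 in clr4D-labelled cells. The time courses differed (adjusted p = 0.000184), which includes those 4 h values. The strain difference was 1.54 ± 0.27 at 2 h with adjusted p = 0.000854, 2.23 ± 0.26 at 4 h, 2.15 ± 0.29 at 10 h with adjusted p = 5.2e-06 and 1.16 ± 0.26 at 24 h with adjusted p = 0.00471. Without wt 2 h replicate 2 the adjusted p at 2 h was 0.0824, and without wt 24 h replicate 1 that at 24 h was 0.101. The 24 h difference was 1.77 when wt 24 h replicate 2 was dropped, and the fall at 4 h in wt was -2.37 when wt 4 h replicate 1 was.

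Other members were also higher in clr4D-labelled cells. SPNCRNA.01 had 58.4 and 13.6 CPM at 4 h and 48.3 and 37.6 at 10 h in wt, against 124.9 and 124.6 and then 120.6 and 108.0 (1.33 ± 0.24 with adjusted p = 0.000735, then 1.36 ± 0.24 with adjusted p = 0.0002). Its 4 h difference was 3.20 when wt 4 h replicate 1 was dropped, and it was not called in a fit of only the groups compared (1.47, adjusted p = 0.102). SPNCRNA.920, which overlaps mnr2 on the same strand in the annotation, rose in both strains. It was at 45.1 and 50.9 CPM in wt and 94.4 and 92.2 in clr4D-labelled cells at 10 h (0.98 ± 0.19, adjusted p = 0.000448). SPNCRNA.1374, inside the calcium ATPase gene cta3 on the other strand, had 2.9 and 2.38 CPM at 2 h in wt and 23.9 and 7.59 in clr4D-labelled cells (2.42 ± 0.57, adjusted p = 0.0246). SPNCRNA.1324, opposite fbp1, had 17.2 and 15.8 CPM at 4 h in wt and 35.8 and 31.9 in clr4D-labelled cells (0.99 ± 0.29, adjusted p = 0.0231). The call for SPNCRNA.1374 ended without wt 2 h replicate 1 or 2 or clr4D 2 h replicate 1 (adjusted p from 0.105 to 0.568), and that for SPNCRNA.1324 without wt 4 h replicate 1 or clr4D 4 h replicate 1 or 2 (from 0.0672 to 0.164).

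The steep risers SPNCRNA.577 and SPNCRNA.935 came up less far in clr4D-labelled cells. SPNCRNA.577 had 2.09 and 2.18 CPM at 0 h, 329.7 and 326.0 at 1 h, 213.0 and 217.2 at 4 h, 347.9 and 385.3 at 10 h and 597.8 and 732.5 at 24 h there. Against wt it was thus lower at 4 and 10 h without overlap (-1.09 ± 0.16 with adjusted p = 4.6e-05, then -1.14 ± 0.15 with adjusted p = 4.85e-06), and at 24 h the difference of -0.26 ± 0.15 was not called (adjusted p = 0.321). SPNCRNA.935 had 5.57 and 8.73 CPM at 0 h, 446.7 and 414.5 at 1 h, 31 and 31.1 at 4 h, 54.2 and 61.5 at 10 h and 215.4 and 176.8 at 24 h. Its strain difference was -0.92 ± 0.20 at 4 h with adjusted p = 0.00375, -1.45 ± 0.16 at 10 h with adjusted p = 3.06e-07 and -0.71 ± 0.13 at 24 h with adjusted p = 0.000852, and the 4 h call ended when wt 4 h replicate 1 was dropped (adjusted p = 0.247) or library totals were used (adjusted p = 0.0832). The time courses differed for SPNCRNA.935 (adjusted p = 0.00614, or 0.0553 when clr4D 10 h replicate 1 was dropped) and SPNCRNA.577 (adjusted p = 0.0086).

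SPNCRNA.504 fell further in clr4D-labelled cells. It had 1244.5 and 1382.9 CPM at 0 h there, 1265.5 and 1339.8 at 4 h, 181.5 and 234.0 at 10 h and 104.8 and 112.3 at 24 h. At 4, 10 and 24 h these libraries all lay below those of wt, by -0.74 ± 0.23 (adjusted p = 0.0297), -1.11 ± 0.24 (adjusted p = 0.00108) and -1.39 ± 0.24 (adjusted p = 0.000318). Without wt 10 h replicate 1 the 10 h difference was -0.66 (adjusted p = 0.113). The 4 h difference was -0.49 (adjusted p = 0.27) without wt 4 h replicate 2, and its call also ended without clr4D 4 h replicate 1 or 2. SPNCRNA.1575, opposite the nuclear rim gene amo1, rose in wt to 53.4 and 56.4 CPM at 10 h and in clr4D-labelled cells to 27.4 and 28.4 (-0.97 ± 0.21, adjusted p = 0.0012). SPNCRNA.1597, opposite the lysine synthesis gene lys9 and the member with the most reads after rrk1, had 1942.5 and 2832.0 CPM at 4 h in wt and 1473.7 and 815.2 in clr4D-labelled cells (-1.06 ± 0.31, adjusted p = 0.0259), and without wt 4 h replicate 2 the difference was -0.75 (adjusted p = 0.331), and without clr4D 4 h replicate 2 it was -0.69 (adjusted p = 0.238).

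Members and the coding genes opposite them did not move in one fixed way. Each member was paired with 1 coding gene, the one covering most of it where several overlapped. The part covered ran from 0.7% (rse1 with cyc3) to 100%. Of 64 pairs of a member and an opposite-strand coding gene that were both tested, at 24 h in wt both rose in 6 and both fell in 2, while the member rose and the gene fell in 9 and the reverse occurred in none. In 15 pairs only the member rose, in 3 only the member fell, in 7 only the gene rose, in 4 only the gene fell, and 18 had no call. Among the 9, SPNCRNA.622, SPNCRNA.1021 and SPNCRNA.1447 passed the read threshold only with their wt 24 h reads. The same held for SPNCRNA.1601 and SPNCRNA.605 where both rose. It also held for SPNCRNA.1253, SPNCRNA.1374, SPNCRNA.1408 and SPNCRNA.1575 where only the member rose. The counts at 24 h in wt therefore partly follow from the selection. At 1 h in wt both rose in 6 pairs, both fell in 1, the member rose and the gene fell in 3, and the member fell and the gene rose in 6. At 24 h in clr4D-labelled cells these counts were 7, 1, 11 and 3. Of all tested genes 26.5% rose and 26.9% fell at 1 h in wt, and 23.7% and 28.6% at 24 h. In clr4D-labelled cells the shares at 24 h were 25.4% and 29.3%.

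The 9 pairs in which the member rose and the gene fell at 24 h in wt were spread over unlike genes. Besides SPNCRNA.577 they held SPNCRNA.607 (3.17) with pfl8 (-1.53 ± 0.31, adjusted p = 0.000219), SPNCRNA.1280 (3.80) with yme1 (-0.56 ± 0.15, adjusted p = 0.00272), SPNCRNA.1447 (1.63) with the septation gene uds1 (-1.49) and SPNCRNA.1597 (0.84) with lys9 (-0.73), all log2 differences. The other 4, named after their values were seen, were SPNCRNA.865 (2.33) with the uncharacterized gene SPAPB24D3.07c (-5.75), SPNCRNA.1021 (1.66) with mid2 (-2.02), SPNCRNA.1599 (2.76) with ptk1 (-0.72) and SPNCRNA.622 (2.66) with sty1 (-0.34), the stress-activated kinase gene. The rises of SPNCRNA.1447, SPNCRNA.1021 and SPNCRNA.622 are descriptions, since these are members only through their wt 24 h reads. Pairs that rose together included SPNCRNA.1364, with the ratio given above, and htr11 (3.91 ± 0.20, adjusted p = 1.08e-13), and SPNCRNA.1234 fell together with nmt1 (-2.47 ± 0.33, adjusted p = 1.6e-06).

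Between the strains at 10 h, 1 pair was higher together, 2 were lower together, and in 4 the member was lower and the coding gene higher in clr4D-labelled cells. SPNCRNA.1087 had 58.1 and 42 CPM in wt and 30.2 and 19.7 in clr4D-labelled cells (-1.03 ± 0.29, adjusted p = 0.0128), beside 4.47 ± 0.23 for the alpha-glucosidase gene gto1 (adjusted p = 1.14e-11). The call for SPNCRNA.1087 ended when wt 10 h replicate 1 was dropped, with an adjusted p of 0.296, and when clr4D 10 h replicate 2 was, with 0.101. SPNCRNA.954 had 33.7 and 45.3 CPM in wt and 15.1 and 16.5 in clr4D-labelled cells (-1.26 ± 0.25, adjusted p = 0.000637), beside 2.64 ± 0.20 for the uncharacterized gene SPAPB15E9.02c (adjusted p = 1.07e-09). SPNCRNA.577 stood at -1.14 beside 1.48 ± 0.27 for SPBC1652.02 (adjusted p = 0.000261), and SPNCRNA.865 at -0.73 ± 0.23 (adjusted p = 0.0236) beside 2.39 ± 0.51 for SPAPB24D3.07c (adjusted p = 0.00106). The call for SPNCRNA.865 ended under library totals or DESeq2, and when any of wt 10 h replicates 1 and 2 and clr4D 10 h replicate 1 was dropped. In these 4 the libraries of the member did not overlap between the strains. In 18 of the 64 pairs only the coding gene was higher at 10 h, in 7 only the coding gene was lower, and 25 had no call. Of all tested genes 12% were higher and 12% lower in that comparison.

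**Figure D5:**
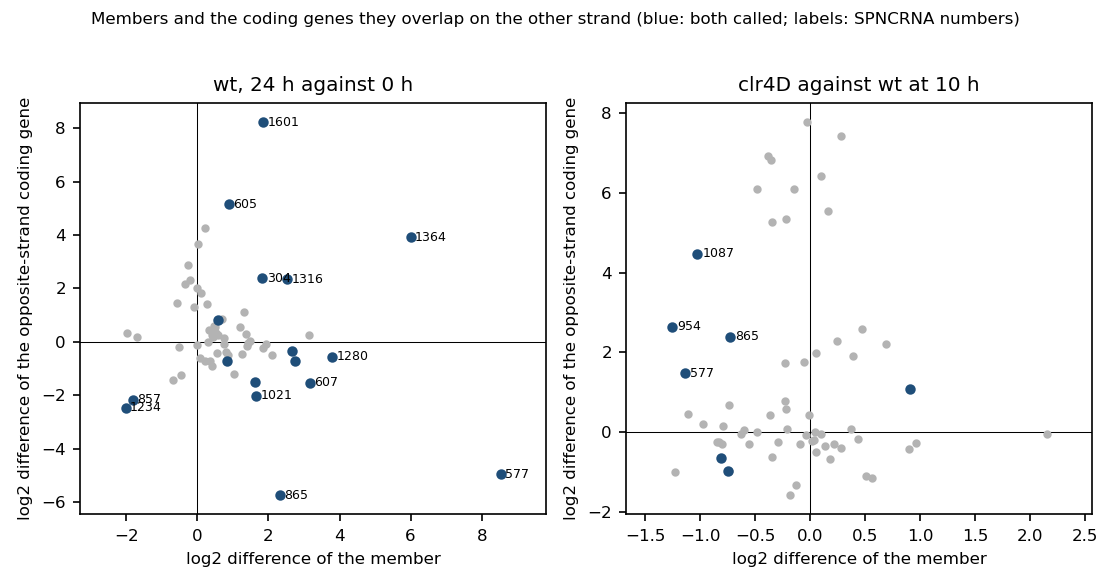
Log2 difference of a member (horizontal axis) against that of the coding gene on its opposite strand (vertical axis), each point 1 of 64 pairs, blue where both were called, for the time comparison in wt at 24 h and the strain comparison at 10 h. SPNCRNA.577 lies far right and low in the first (8.54 and -4.95), and SPNCRNA.1087 lies left and high in the second (-1.03 and 4.47).

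Genes of the machinery that destroys or silences such RNAs were also counted. The list held 36 tested genes of nuclear RNA surveillance, RNA interference and linked chromatin factors, and mei2, the meiotic switch gene, was 1 of them. Of these, 4 rose and 17 fell at 1 h and 10 rose and 15 fell at 24 h in wt. In clr4D-labelled cells 7 rose and 15 fell at 24 h. The shares of all genes called were 53.4%, 52.3% and 54.7% in these comparisons. mei2 was among those that fell at 1 h in wt and rose at 24 h in both strains. rrp6, the nuclear exosome nuclease, went from 190.9 to 87.8 CPM at 1 h in wt (adjusted p = 3.32e-06) and stood at 153.9 at 24 h. pab2, which works with the exosome on meiotic RNAs, was at 164.8 CPM at 0 h and 74 at 24 h (-1.16 ± 0.20, adjusted p = 6.14e-05), and mmi1 at 166.7 and 186.3 (0.17 ± 0.58, adjusted p = 0.835). The Argonaute gene ago1 rose from 101.2 to 174.7 CPM (0.79 ± 0.13, adjusted p = 2.59e-05). Between the strains none of the 36 was called at 2 h, 1 was higher and 1 lower at 4 h, 1 higher and 2 lower at 10 h, and 1 lower at 24 h, while over the mean of the 6 times 2 were higher and 6 lower, beside 24.5% of all genes called.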

How the data were processed

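RNA-seq of 24 libraries of Schizosaccharomyces pombe was analysed from the deposited read counts per gene, 1 table per library. Reads were aligned with TopHat2 2.0.8 to ASM294v2 and counted with HTSeq 0.6.1, per the submitters' processing notes. No source used here states the strand setting of the counting or the annotation release. Ambiguous reads were 0.95 to 1.41% and non-unique reads 5.43 to 12.37% of the counts, and they stayed out of library sizes. Names, classes and neighbours came from the RefSeq annotation of ASM294v3, for which no coordinates are given. The members and all gene lists were chosen with earlier results of these data known.

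Counts were scaled by TMM and fitted with edgeR 4.0.16 (R 4.3.3), with filterByExpr, robust quasi-likelihood dispersions, 12 group means, 12 residual degrees of freedom and Benjamini-Hochberg adjustment over 5664 genes. The common biological coefficient of variation was 0.122. Time courses were compared by the strain-by-time interaction. The script was tested on simulated data. Comparisons with 0 h share those libraries. Ratios with a 0 h group of 0 to 3 reads use a floor of 3 reads over the group or an exact 95% interval, which cover counting error only.

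Genes were named by a fixed rule: the 10 most read members, every member with a gene name, the 6 widest called rises and falls per comparison without overlap and with at least 10 CPM, the 6 clearest differences in course, 3 members on each side of the threshold, their coding neighbours, and listed genes. Alternatives were RLE, upper quartile and library-total scaling, no filter, DESeq2 1.42.0, a replicate block, only the groups compared, each library left out, and wt 0 h replicate 2 and wt 4 h replicate 2 left out together.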

Additional observations from a re-analysis of the deposited data

Results flagged for a closer look

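For 9 of the 96 members the time course differed between the wt-labelled and clr4D-labelled libraries, by the strain-by-time interaction in edgeR, Benjamini-Hochberg adjusted over all tested genes, of which 6.87% were called. The adjusted p was 2.5e-05 for meu19, 0.000179 for meu3, 0.000184 for SPNCRNA.857, 0.00614 for SPNCRNA.935, 0.00844 for SPNCRNA.504, 0.0086 for SPNCRNA.577, 0.018 for ter1, 0.0305 for srp7 and 0.0349 for SPNCRNA.1364. meu19, meu3, SPNCRNA.857 and ter1 were higher in clr4D-labelled cells at the late times, and SPNCRNA.935, SPNCRNA.504 and SPNCRNA.577 were lower at 4 and 10 h. srp7 differed at 4 h, where wt replicate 2 stood far above replicate 1, and SPNCRNA.1364 was lower in clr4D-labelled cells at 10 h (-0.81 ± 0.21). Leaving out wt 4 h replicate 1 gave 17 such members, and leaving out wt 4 h replicate 2 gave 14. The call ended when single libraries were dropped for srp7 (any of 10, with adjusted p up to 0.121), SPNCRNA.1364 (any of 9, up to 0.212), ter1 (any of 5, up to 0.064) and SPNCRNA.935 (1, at 0.0553). The 10 h difference of SPNCRNA.1364 was not called when wt 10 h replicate 1 was dropped, with an adjusted p of 0.141, and for clr4D 10 h replicate 1 it was 0.0575. meu3 and meu19 are members through their clr4D 10 h reads, and SPNCRNA.857 is one through its clr4D 4 h reads. The difference in course of these members is therefore a description.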

How the results depend on the processing

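Counts of called members kept within 1.5 times of their value in most alternatives. Between strains at 0 h, where none was called, library totals gave 1, DESeq2 gave 1 and a fit of only the groups compared gave 3, and at 1 h that fit gave 1. At 2 h (3 called) the replicate block gave 6 and the fit of only the groups compared gave 5. At 4 h (17 called) library totals gave 11 and only the groups compared gave 2, and leaving out wt 0 h replicate 2 and wt 4 h replicate 2 together gave 12. The replicate block gave 18 members with different courses in place of 9. It lost no call of a named member. Deviations of same-numbered libraries correlated from -0.08 to 0.33 over 66 pairs, 23 of them over 0.1, so not every pair passed and the numbers are not taken as pairing the libraries. Leaving out 1 library at a time gave 32 to 47 called members at 1 h in wt, 44 to 49 at 2 h, 35 to 57 at 4 h, 39 to 48 at 10 h and 45 to 50 at 24 h. In clr4D-labelled cells the ranges were 31 to 39, 30 to 43, 33 to 46, 42 to 49 and 41 to 50. Between strains they were 0 to 1 at 0 h, 0 to 0 at 1 h, 1 to 3 at 2 h, 11 to 19 at 4 h, 13 to 20 at 10 h, 7 to 13 at 24 h, 16 to 31 over the mean of the times and 6 to 17 for the course. SPNCRNA.904 turned from -0.52 to 0.07 at 24 h in clr4D-labelled cells under library totals. Of 816 alternative values for 71 named differences, 740 kept their call, 75 lost it and 1 turned. The causes were not tested. RLE and upper quartile scaling moved the all-gene median by -0.06 to 0.08. With 2 libraries a group, differences inside the replicate spread were not detectable.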
